A study of Mus musculus with 10 samples.

Results

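The protein-coding transcriptome of the dorsal telencephalon, the part of the embryonic forebrain that forms the cerebral cortex, was described in the 5 control libraries of a mouse study that comprised 10 libraries. All 5 came from tissue dissected at embryonic day 12 on a mixed C57/Bl6 - 129 SvJ background, and the other 5 libraries of the study, mutants for Rnu11, were not used here. The members were the protein-coding genes with a mean of at least 1 FPKM over the 5 control libraries, where FPKM counts fragments per kilobase of transcript relative to all fragments of the library and so allows levels of different genes to be compared; the unit was inferred from the values, since the files name none. These were 11487 of the 21405 protein-coding genes and of 38803 gene symbols in all. The control genotype was Rnu11WT/Flx::Emx1-cre+/-, so each control carried 1 wild-type and 1 floxed copy of Rnu11, the gene of the U11 small nuclear RNA of the minor spliceosome, together with a Cre recombinase placed at Emx1, a gene of dorsal forebrain progenitors. A group with 2 wild-type copies of Rnu11, or without Cre, is not among the libraries, so the levels below are those of heterozygous, Cre-carrying tissue. The labels do not say whether each library came from a separate embryo or from pooled embryos, so the spread between libraries may be biological or technical.

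In the dorsal telencephalon at this stage, radial glia line the ventricle and divide either to renew themselves or to give rise to neurons, directly or through intermediate progenitors. Notch signalling and HES repressors keep cells in the progenitor state, while proneural basic helix-loop-helix factors such as Neurog2 start neuronal differentiation. Patterning signals reach the tissue from its borders: WNT and BMP ligands from the cortical hem at the medial edge, and FGF ligands from the rostral midline.

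The 5 libraries did not resemble each other equally. Across the counted genes the correlation of log2(FPKM + 1) was 0.985 to 0.988 among control 1, control 2 and control 3, 0.964 to 0.969 between these and control 4, 0.963 to 0.970 between these and control 5, and 0.952 between control 4 and control 5. Depth, estimated from the step that 1 fragment adds, ran from 9820000 fragments in control 4 to 20700000 in control 2. Protein-coding genes held 10.1 to 15.8% of the FPKM sum in control 1 to control 4 and 19.1% in control 5, and because the deposited values are scaled to the whole library this share enters every FPKM below. The median log2 ratio of a library to the gene means was -0.16 in control 3, 0.14 in control 4 and 0.18 in control 5, and values given below as "rescaled" had this offset removed, which raised control 3 and lowered control 4 and control 5. After rescaling, genes of the lowest quintile by transcript GC content lay 0.17 above their mean in control 5 and genes of the highest quintile lay 0.20 below, where the other 4 libraries stayed within 0.09 of the mean in every quintile. Rnu11 itself was read at 1913 to 2818 FPKM. The library labelled control 4 was alone in carrying Y-linked transcripts: Uty stood at 26.3 FPKM, Ddx3y at 17.9 FPKM and Eif2s3y at 13.1 FPKM there, and the other 4 libraries were at or near 0. Xist, the RNA of the inactive X chromosome, stood at 0.0591 FPKM in control 4 and at 78.0 to 136.0 FPKM in the others. By these transcripts control 4 was male tissue and the others were female. Sex and any other difference of control 4 cannot be told apart in these libraries. Results that rest on control 4 or control 5 are given with and without that library where the difference matters.

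Levels spanned more than 3 orders of magnitude. Of the 11487 genes, 6258 (54.5%) had a mean between 1 and 10 FPKM, 4785 (41.7%) between 10 and 100 FPKM, 405 between 100 and 1000 FPKM and 39 at 1000 FPKM or more. Those 39 genes held 23.2% of the summed level. The median gene stood at 8.63 FPKM with a coefficient of variation of 20.1% between libraries, and its SD of log2(FPKM + 1) was 0.24 as deposited and 0.20 rescaled. Where a gene is called even below, this refers to the deposited values. The highest library exceeded the lowest at least 2-fold, on FPKM + 1, in 1358 genes (11.8%), in 1071 (9.32%) after rescaling, and in 103 (0.897%) when control 1 to control 3 alone were compared. Control 4 stood at least 2-fold above every other library in 85 genes and control 5 in 68, against 2 or 3 for each of the others.

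**Figure D1:**
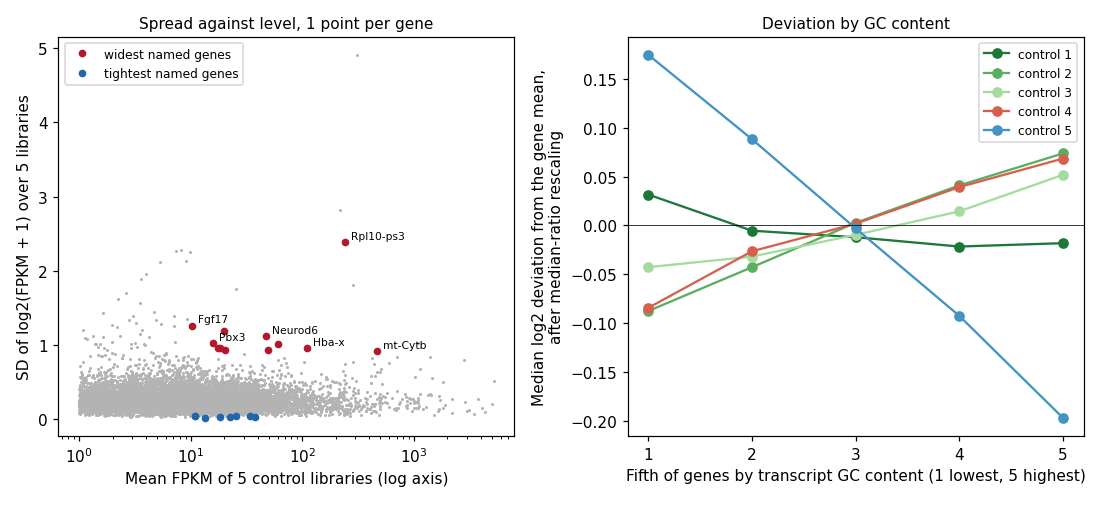
Left, SD of log2(FPKM + 1) over the 5 control libraries against mean FPKM (log axis), 1 grey point per counted gene, with the 12 widest (red) and 8 tightest (blue) named genes. Right, median log2 deviation from the gene mean after rescaling, by quintile of genes by transcript GC content, 1 line per library; control 5 runs from 0.17 in the lowest to -0.20 in the highest.

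The 5 marker genes of the tissue were present in all libraries. Emx1, a homeobox gene of dorsal progenitors (GRCm38 chr6:85187438-85204462, plus strand), stood at 24.7, 19.6, 19.3, 13.6 and 24.4 FPKM in control 1 to control 5, a mean of 20.3 ± 4.55 FPKM (SD, n = 5). Pax6, a paired-box factor of radial glia (chr2:105668900-105697364, plus strand), stood at 24.7, 21.7, 21.96, 24.8 and 33.1 FPKM, a mean of 25.2 ± 4.63 FPKM (SD, n = 5). Emx1 was lowest in control 4, and Pax6 was highest in control 5 with the other 4 libraries close together. Sox2, a factor of neural progenitors (chr3:34650405-34652461, plus strand), stood at 21.7, 20.3, 21.6, 33.7 and 36.5 FPKM in the same order of libraries, with control 4 and control 5 above the other 3 and a mean of 26.8 ± 7.68 FPKM (SD, n = 5). Eomes, the factor that marks intermediate progenitors (chr9:118478212-118486132, plus strand), stood at 10.3, 8.93, 9.01, 7.81 and 14.3 FPKM, a mean of 10.1 ± 2.54 FPKM (SD, n = 5). Neurod1, a bHLH factor of newly born neurons (chr2:79452521-79456751, minus strand), stood at 7.14, 7.93, 6.698, 6.84 and 14.2 FPKM, a mean of 8.55 ± 3.17 FPKM (SD, n = 5). As deposited, Eomes and Neurod1 shared their pattern: control 1 to control 4 were close together and control 5 was the highest. After rescaling, control 5 stayed the highest and control 4 was the lowest for both. Rescaled Eomes then differed from Neurod1 in that control 4 stood further from its nearest library than control 5 did. In bulk tissue, a lower value can mean fewer cells of a type or less RNA per cell, and these cannot be told apart here.

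Every one of the 22 radial glia genes looked at had a mean of at least 1 FPKM, and 19 of them had at least 10 FPKM. The most abundant was Vim, an intermediate filament of radial glia, at 279, 274, 248, 306 and 309 FPKM in control 1 to control 5. Fabp7, the brain fatty acid binding protein, followed at 183, 141, 214, 149 and 207 FPKM. Mki67, the proliferation antigen, was next at 99.2 ± 30.1 FPKM (SD, n = 5). The filament gene Nes averaged 42.4 ± 11.3 FPKM (SD, n = 5), the LIM homeobox factor Lhx2, which specifies cortical identity, 59.9 ± 14.9 FPKM (SD, n = 5), and the membrane protein Prom1 44.5 ± 9.095 FPKM (SD, n = 5). Within the list the ranges of Vim and Fabp7 over the 5 libraries did not overlap, whereas from Fabp7 down through Mki67, Lhx2, Rcn1, Prom1, Nes, Notch1 and Slc1a3 each range overlapped with that of the next gene. Genes of later or outer radial glia and of astrocytes were lower but present: Hopx averaged 13.7 ± 3.05 FPKM (SD, n = 5) and Sox9 6.91 ± 0.986 FPKM (SD, n = 5). Aldoc, a glycolytic enzyme of radial glia, was the least even member, with 22, 19.2, 24.5, 4.17 and 21.8 FPKM; control 4 alone was low, and without it the mean was 21.9 ± 2.15 FPKM (SD, n = 4).

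All 14 intermediate progenitor genes passed 1 FPKM, 9 of them 10 FPKM. Hes6, a HES family member that promotes differentiation, had the highest mean with 60.8 ± 9.81 FPKM (SD, n = 5). Tead2 was next at 55.3 ± 6.71 FPKM (SD, n = 5), but an exon of another gene overlaps it on the opposite strand, and the labels do not say whether strand was used in counting. Elavl2, a neuronal RNA-binding protein, averaged 53.3 ± 4.54 FPKM (SD, n = 5), and the ranges of these 3 genes overlapped. Neurog2, the main proneural factor of the dorsal telencephalon, stood at 22.8, 22.3, 21.7, 12.2 and 24.9 FPKM in control 1 to control 5, so that control 4 held the lowest value. Rhbdl3 and the somatostatin receptor gene Sstr2 had the same shape, with 2.13 and 2.25 FPKM in control 4 against 4.302 to 5.88 and 5.17 to 5.64 FPKM in the others.

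The 26 genes of early excitatory neurons were also all counted, and 13 of them reached 10 FPKM. Map1b, a microtubule-associated protein of growing neurons, had the highest mean at 143 ± 55.3 FPKM (SD, n = 5), or 120 ± 20.2 FPKM (SD, n = 4) without control 4. Sox11, a factor of early differentiation, averaged 134 ± 30.2 FPKM (SD, n = 5), and Tubb3, the neuronal beta tubulin, 109.8 ± 34.03 FPKM (SD, n = 5). Genes of later neurons were near the threshold, with the nuclear protein Rbfox3 at 1.82 to 3.603 FPKM and the synaptic protein Snap25 at 1.86 to 2.597 FPKM. The deep-layer factors lay between, Fezf2 at 20.2 ± 7.54 FPKM (SD, n = 5) and Bcl11b at 16.6 ± 3.05 FPKM (SD, n = 5). Control 4 differed from the rest in both directions. The cytoskeletal genes of migrating and growing neurons were highest there: Dcx stood at 33.95, 36.4, 35.9, 95.05 and 25.4 FPKM, and Map1b at 98.5, 140.3, 107, 237 and 134 FPKM. Neurod6, a bHLH factor of cortical excitatory neurons, was lowest there, at 60.5, 57.5, 62.3, 9.24 and 45.5 FPKM, and its mean without control 4 was 56.5 ± 7.54 FPKM (SD, n = 4). Of the 26 neuronal genes, 14 were highest in control 4 and 11 after rescaling, while 37.5% and 25.9% of all counted genes were.

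On the scale of list means of log2(FPKM + 1), radial glia genes exceeded neuronal genes in every library, by 0.95 ± 0.18 (SD, n = 5), and intermediate progenitor genes by 0.87 ± 0.09. Between intermediate progenitor and neuronal genes the difference was 0.08 ± 0.16, positive in 4 of 5 libraries and -0.18 in control 4, so these lists could not be ordered beyond the spread of the libraries. Such differences within a library depend little on its scaling, which enters only through the 1 FPKM added. They do depend on which genes make up a list: with a mean of at least 5 FPKM required, the excess of radial glia over neuronal genes was 0.27. Cajal-Retzius genes, markers of the earliest-born neurons at the cortical surface, lay 1.27 ± 0.24 below the neuronal list. Reln, the secreted organiser of cortical layering that these cells make, stood at 17.8, 19.9, 18.1, 36.5 and 23.5 FPKM in control 1 to control 5, with a mean of 23.2 ± 7.79 FPKM (SD, n = 5) and of 19.8 ± 2.64 FPKM (SD, n = 4) without control 4. Cxcr4, a chemokine receptor, was at a similar level, 22.4 ± 5.097 FPKM (SD, n = 5), and above Reln in 3 of 5 libraries. Trp73, a p53 relative of these neurons, averaged 6.09 ± 1.58 FPKM (SD, n = 5). Calb2 ranged most widely, from 4.77 FPKM in control 2 to 22.8 FPKM in control 4. Control 4 was the highest library for 8 of the 10 counted Cajal-Retzius genes, as deposited and rescaled. It was the highest for 37.5% and 25.9% of all counted genes. Of the 10 genes, 1 fell under 1 FPKM when control 4 was left out.

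**Figure D2:**
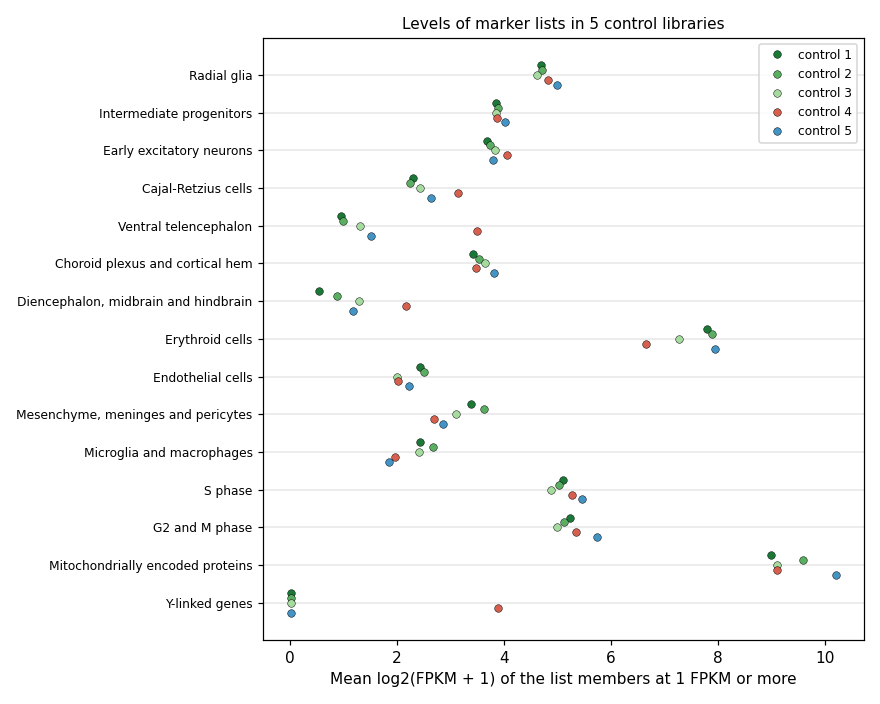
Mean log2(FPKM + 1) of the counted members of each marker list (rows), 1 point per control library (colours). Radial glia lie above intermediate progenitors and early neurons in each library, the ventral list is highest in control 4 at 3.50, where 4 of its 7 counted genes passed 1 FPKM only through that library, and the erythroid list spans 6.65 to 7.95.

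Markers of neighbouring brain regions separated control 4 from the other libraries. Of the 16 genes of the ventral telencephalon, where inhibitory neurons are born, 7 were counted, and 4 of these fell under 1 FPKM when control 4 was left out. Dlx1, a homeobox factor of that region, stood at 0.601, 0.702, 2.08, 17.8 and 2.11 FPKM in control 1 to control 5. Isl1, a LIM homeobox factor of ventral forebrain neurons, stood at 0.131, 0.432, 0.419, 14.9 and 1.52 FPKM, and Gad2, which makes the transmitter GABA, at 0.143, 0.146, 0.368, 5.78 and 0.171 FPKM. In each of these genes control 4 exceeded the highest of the other libraries. Since those 4 were counted only because of control 4, the level is given over all 16 genes, counted or not: the mean of log2(FPKM + 1) was 2.28 in control 4 and 0.48 to 0.78 in the others. Nkx2-1, the factor of the most ventral domain, averaged 0.246 FPKM and was not counted. Genes of more caudal brain were nearly all low: 2 of 16 were counted, Barhl2 and Tcf7l2, at 0.263 to 4.84 FPKM and 0.683 to 2.48 FPKM, both highest in control 4. Whether ventral or caudal tissue contributed to that library was not tested.

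The medial border of the tissue was well represented. Of 18 genes of the choroid plexus and cortical hem, 17 were counted and 8 reached 10 FPKM. Ttr, the transthyretin made by choroid plexus epithelium, stood at 159, 149, 325, 132 and 159.7 FPKM in control 1 to control 5, and Folr1, a folate receptor of the same epithelium, at 11.9, 15.03, 24.3, 12.2 and 12 FPKM. Both were highest in control 3 and close together in the other 4 libraries. The hem genes Rspo3, Rspo2 and Wnt3a averaged 41.9 ± 11.4, 21.1 ± 3.76 and 7.16 ± 0.517 FPKM. Wnt2b, another hem ligand, was low in control 4 alone, with 1.77 FPKM against 5.88 to 7.87 FPKM.

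Transcripts of cells that come with blood and vessels were found in every library. Hbb-y, an embryonic beta-like globin, had the highest mean of all protein-coding genes, with 6453, 6964, 4326, 2887 and 5322 FPKM in control 1 to control 5. The adult-type globins Hbb-bt and Hba-a1 averaged 493 ± 179 and 414 ± 141 FPKM, but near-identical copies make their separate values uncertain. Erythroid factors and enzymes were far lower than globins, with Alas2 at 4.78 to 9.96 FPKM and the factors Klf1 and Gata1 not counted. All 13 endothelial genes were counted at low level, with Egfl7, a protein secreted by vessels, at 8.52 to 17.8 FPKM, Kdr, a receptor of vascular growth factor, at 6.71 to 11.2 FPKM and Pecam1 at 5.86 to 8.82 FPKM. Mesenchymal collagen reached more: Col3a1, a fibrillar collagen, stood at 54.1, 68.05, 38.97, 28.2 and 31 FPKM. Of the microglial genes the complement subunits C1qb and C1qc were the highest, at 6.096 to 14.99 FPKM and 3.98 to 13.3 FPKM. Control 2 held the highest value in 9 of 10 mesenchymal, 8 of 13 endothelial and 8 of 10 microglial genes, where it was the highest library for 7.81% of all counted genes.

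Cell division genes were present in full: all 61 were counted and 54 reached 10 FPKM, with a median of 34.9 FPKM. Their median SD of log2(FPKM + 1) was 0.29 as deposited and 0.18 rescaled, against 0.24 and 0.20 for all counted genes. In S phase, Pcna, the clamp of the replicative polymerase, stood at 375, 312, 306, 325 and 421 FPKM in control 1 to control 5, and Tyms, which makes thymidylate, averaged 112 ± 10.8 FPKM (SD, n = 5). In G2 and M phase, Top2a, which untangles chromosomes, stood at 312, 252, 232, 341 and 432 FPKM. Cdk1, the kinase that starts mitosis, stood at 216, 166, 182, 197 and 251 FPKM, and its partner Ccnb1 averaged 81.8 ± 15.5 FPKM (SD, n = 5). Mki67 stood at 85.3, 88.5, 68.2, 106 and 147 FPKM. Control 5 was the highest library for 28 of 30 G2 and M genes and for 20 of 31 S phase genes, and for 25 and 15 after rescaling, where it was the highest for 44.4% and 31.1% of all counted genes. The G2 and M genes had a median transcript GC content of 47.0%, against 49.5% for all counted genes, and the part of the GC pattern of control 5 in this was not tested. Pttg1, an inhibitor of sister chromatid separation that is not in the list, had another pattern: it stood at 52.4, 46.7, 46.9, 13.9 and 84.4 FPKM, lowest in control 4 and highest in control 5. No G2 or M gene passed the 2-fold range after rescaling, and 4 did as deposited.

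The start regions of G2 and M genes were searched for 2 sets of letters known from genes of this phase. The stretches below are shown because G2 and M genes moved together between libraries. As deposited, Cdk1 and Ccnb2 moved with the list, and Cdc20 was an exception with its highest value in control 1. After rescaling, Cdk1 was highest in control 1 too, where 25 of the 30 listed genes were highest in control 5. Each printed stretch runs from base -150 to base 30 around the start in RefSeq (GRCm38.p6). It is read on the gene's strand, which is the minus strand in each. Capitals mark the CHR letters TTTGAA (cell cycle genes homology region) and the CCAAT box on either strand. Cdk1 lies at chr10:69352883-69353062, Ccnb2, a mitotic cyclin, at chr9:70421525-70421704 and Cdc20, an activator of the anaphase-promoting complex, at chr4:118437314-118437493.
Cdk1: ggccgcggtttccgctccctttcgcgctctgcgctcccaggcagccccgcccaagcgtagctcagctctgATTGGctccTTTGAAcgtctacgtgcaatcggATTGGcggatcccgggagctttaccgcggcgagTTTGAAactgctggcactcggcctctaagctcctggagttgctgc
Ccnb2: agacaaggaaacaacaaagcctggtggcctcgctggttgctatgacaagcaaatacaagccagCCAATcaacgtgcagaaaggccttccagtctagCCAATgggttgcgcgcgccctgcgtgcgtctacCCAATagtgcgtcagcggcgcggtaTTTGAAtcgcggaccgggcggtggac
Cdc20: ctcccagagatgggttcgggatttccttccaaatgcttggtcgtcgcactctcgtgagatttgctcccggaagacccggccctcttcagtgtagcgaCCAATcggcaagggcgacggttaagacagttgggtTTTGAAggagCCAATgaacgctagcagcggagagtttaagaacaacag
Both strands were searched, so that the letters TTTGAA could also be read as their reverse complement, and likewise the letters of the other set. The windows counted here are longer than the printed stretches: each begins further upstream of the start and contains the stretch. TTTGAA was found in 19 of 25 windows of G2 and M genes (76.0%), in 3 of 29 windows of S phase genes (10.3%), in 11.5% of 11192 windows of counted genes and in 17.9% of all 32851 windows. CCAAT was found in 20 of 25 (80.0%), 17 of 29 (58.6%), 38.2% and 37.4% of the same windows. The other lists searched were cholesterol synthesis, ribosomal protein, radial glia and early neuron genes, with TTTGAA in 4.76, 5.19, 17.4 and 20% and CCAAT in 71.4, 29.9, 52.2 and 60.0% of their windows, so that CCAAT was frequent beyond the cell division genes. The 25 windows belong to 25 of the 30 G2 and M genes. A match says only that the letters are there. The levels of the 3 genes printed were 202 ± 33.1 FPKM for Cdk1, 50.1 ± 6.44 FPKM for Ccnb2 and 82.7 ± 7.21 FPKM for Cdc20, whose value is uncertain because of an overlapping exon on the opposite strand.

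Transcription factor families differed in how much of each family was present. Of 344 members in the families looked at, 166 (48.3%) were counted, against 53.7% of all protein-coding genes. Of these, 82 reached 10 FPKM, and the median was 9.43 FPKM, against 8.63 FPKM for all counted genes. None of the 38 HOX genes, which pattern tissue caudal to the forebrain, was counted, and 30 of them were listed at 0 in all 5 libraries. Pax6 was the single counted member of 9 PAX genes. All 4 NFI factors were counted, as were 14 of 19 SOX, 18 of 19 TEAD, TCF/LEF and MYC, 9 of 13 HES, HEY and ID, 13 of 23 bHLH, 15 of 44 forkhead and 21 of 45 nuclear receptor genes. A 2-fold range was seen in 50 of the 166 counted factors (30.1%), against 11.8% of all counted genes, and in 1 (0.602%) among control 1 to control 3, against 0.897%.

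Sox11 and Sox4, partners in neuronal differentiation, led the SOX family. Sox11 stood at 127, 126, 119.8, 186 and 109.8 FPKM in control 1 to control 5 and Sox4 at 49.8, 51.6, 50.3, 62.9 and 56.6 FPKM, and Sox11 was higher in all 5 libraries. Sox2 exceeded its close relatives Sox3 and Sox1 in every library, the mean log2 ratio being 1.25 ± 0.45 and 2.31 ± 0.45. The endothelial members Sox18 and Sox17 were near the threshold, at 1.43 to 2.79 FPKM and 0.665 to 1.66 FPKM.

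Among homeobox factors, Lhx2 and Meis2, a TALE cofactor, were the highest, Meis2 with 52, 56.1, 37.01, 85.3 and 64.4 FPKM in control 1 to control 5. Otx2, a factor of the forebrain roof and choroid plexus, stood at 15.8, 20.9, 23.2, 43.1 and 28.3 FPKM, where control 4 was again the highest. Emx1 exceeded Emx2 in every library; Emx2 was the more variable, at 9.52, 7.52, 7.13, 8.57 and 20.02 FPKM. The TALE genes Pbx3 and Meis1 were high in a single library: Pbx3 stood at 45.1 FPKM in control 4 and 8.07 to 8.83 FPKM elsewhere, and Meis1 at 12.04 against 1.48 to 1.96 FPKM. The POU factor Pou3f2, which acts in neuronal differentiation, had 16.9 FPKM in control 4 and 4.85 to 6.87 FPKM elsewhere, while its relative Pou3f3 averaged 17.1 ± 2.67 FPKM (SD, n = 5). All 5 counted POU genes were highest in control 4, as deposited and rescaled, as were 37.5% and 25.9% of all counted genes. Foxn3 and Foxp1 had the highest means of the forkhead genes, at 27.1 ± 5.68 and 18.4 ± 1.63 FPKM. Foxp1 exceeded Foxj1, with a mean of 17.5 FPKM, in only 2 of 5 libraries.

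The HES, HEY and ID repressors averaged 4.63 ± 0.21 on the log2(FPKM + 1) scale and were highest in control 5. Id4, an inhibitor of bHLH dimers, stood at 80.1, 67.9, 70.1, 51.5 and 123 FPKM in control 1 to control 5. The Notch targets Hes5 and Hes1 stood at 21.2, 22.4, 17.3, 24.8 and 26.02 FPKM and at 9.92, 12.1, 11.3, 7.71 and 23.8 FPKM, Hes5 being the higher in all 5 libraries although by little in control 5. Hey2 was low in control 4, at 1.86 FPKM against 6.08 to 10.6 FPKM. Among bHLH activators, the ubiquitous E proteins Tcf12 and Tcf3 were the highest, at 83.9 ± 13.7 and 69.02 ± 8.4 FPKM. Neurod6, Neurog2, Neurod2 and Neurod1 were lower, in that order of their means, but in control 4 Neurog2, at 12.2 FPKM, was above Neurod6, at 9.24 FPKM. Neurog2 exceeded Neurog1 in every library.

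The T-box factors Eomes and Tbr1, which follow each other as intermediate progenitors become neurons, had means of 10.1 ± 2.54 and 9.35 ± 2.703 FPKM and could not be ordered: Eomes was higher in 4 of 5 libraries, and the log2 ratio ran from -0.77 in control 4 to 0.72 in control 5. Of the nuclear receptors Nr2f1, a gradient factor of cortical areas, was the highest and even, at 41.3, 52.8, 53.9, 46.4 and 49.5 FPKM, and exceeded Nr2f2, at 9.76 to 21.99 FPKM, in every library. Nr2e1, which maintains neural progenitors, averaged 22.6 ± 6.26 FPKM (SD, n = 5).

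The NFI factors, which act in glial and late progenitor differentiation, were all lowest in control 4, as deposited and rescaled, as were 9.96% and 24.1% of all counted genes. Nfib stood at 133, 126, 126, 65.01 and 135 FPKM in control 1 to control 5, so that control 4 held less than the lowest of the other 4 libraries. Nfia and Nfix showed the same lowest library, at 20.6 and 19.6 FPKM, with overlapping exons of other genes on the opposite strand. Among zinc finger factors Sp3 led with 69.01 ± 12.7 FPKM (SD, n = 5). Zeb2, a repressor in cortical neurons, was even at 31.2 to 38.9 FPKM, whereas Zbtb18, another repressor of neuronal genes, was lowest in control 4 at 13.03 FPKM against 22.8 to 27.6 FPKM. Fezf1 and Sall3 were the widest of this group, with 8.88 and 6.83 FPKM in control 4 and 0.485 to 2.09 and 0.909 to 1.87 FPKM in the others. The medial progenitor factors Dmrta2 and Dmrt3 averaged 10.5 ± 0.928 and 5.39 ± 0.878 FPKM. The Hippo effectors Yap1 and Wwtr1, which act through TEAD factors, were even, at 33.1 to 45.97 FPKM and 16.4 to 19.3 FPKM. Mycn far exceeded Myc: Mycn stood at 45.6, 44.8, 39.7, 46.8 and 49.9 FPKM and Myc averaged 1.09 ± 0.227 FPKM (SD, n = 5).

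**Figure D3:**
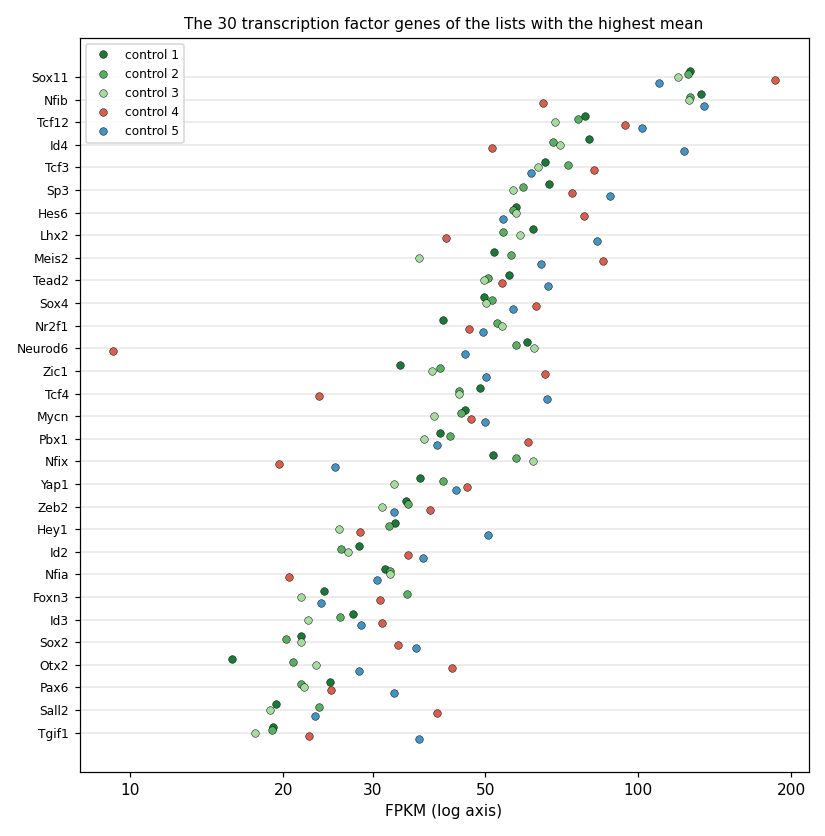
FPKM (log axis) of the 30 transcription factors of the lists with the highest means, 1 point per control library. Sox11 and Nfib lie at the top with means of 134 and 117.0 FPKM, and Neurod6 and Nfib show control 4 (red) below the other libraries.

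Of 309 ligands, receptors and modulators of signalling, 208 (67.3%) were counted, against 53.7% of all protein-coding genes. Of these, 69 reached 10 FPKM, and the median was 6.37 FPKM, against 8.63 FPKM for all counted genes. Receptors and intracellular parts were present more widely than ligands. Of 19 WNT ligands 8 were counted, against 24 of 35 receptors and modulators; of 22 FGF ligands 6, against 17 of 19; and of 32 BMP and TGF-beta ligands 9, against 21 of 27. A 2-fold range was seen in 51 of the 208 genes (24.5%), and in 4 (1.92%) among control 1 to control 3, against 11.8% and 0.897% of all counted genes.

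Wnt7b, made by early cortical neurons, was the highest WNT ligand and one of the most even genes of its group, at 28.4, 28.8, 25.4, 30.03 and 26.5 FPKM in control 1 to control 5. The hem ligands Wnt8b and Wnt3a followed at 7.04 to 11.7 FPKM and 6.62 to 7.95 FPKM, and Wnt5b was the most even, at 5.44 to 5.99 FPKM. Among receptors Fzd3, which guides axons, was the highest with 66.9 ± 11.2 FPKM (SD, n = 5), and the co-receptor Lrp6 averaged 19.2 ± 3.296 FPKM (SD, n = 5). Axin2, a feedback target of WNT signalling, averaged 15.6 ± 1.31 FPKM (SD, n = 5). The secreted inhibitor Sfrp1 stood at 22.1, 23.4, 18.5, 22.96 and 37.9 FPKM, with control 5 the highest.

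Some FGF ligands were low in control 1. Fgf17, a ligand of the rostral midline, stood at 1.21, 17.7, 14.8, 12.1 and 5.64 FPKM in control 1 to control 5, and Fgf8, from the same source, at 0.0894, 6.201, 3.599, 3.61 and 2.42 FPKM. Fgf18, related in sequence, stood at 0.193, 1.93, 1.42, 0.915 and 0.276 FPKM and was not counted. Control 1 was the lowest library for all 3 and far below the others for Fgf17 and Fgf8; whether less rostral tissue entered that library was not tested. Without control 1 the mean of Fgf17 was 12.6 ± 5.14 FPKM (SD, n = 4). Fgf15 had another exception: 12.1 FPKM in control 4 against 0.76 to 2.004 FPKM in the others. The receptor Fgfr2 exceeded Fgfr1 and Fgfr3 in every library; Fgfr2 stood at 39.95, 49.9, 40.04, 59.3 and 48.4 FPKM, and Fgfr3, which is graded across the cortex, at 28.4, 30.1, 29.5, 16.9 and 32.3 FPKM, low in control 4. Of the target genes of FGF signalling, Etv5 stood at 10.3, 10.8, 8.93, 14.7 and 8.03 FPKM, so that control 1 lay within the range of the others, and Etv4 was lowest in control 1 by little, at 2.13 FPKM against 2.16 to 5.08 FPKM.

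The BMP receptor Bmpr1a exceeded Bmpr1b in every library, with means of 52.04 ± 11.3 and 5.64 ± 1.58 FPKM. Smad4, the shared mediator of BMP and TGF-beta signals, stood at 51.6, 54.4, 46.3, 61.8 and 50.7 FPKM in control 1 to control 5. Bmp7, a hem ligand, averaged 9.85 ± 1.96 FPKM (SD, n = 5), and the inhibitor Nog 5.26 ± 1.91 FPKM (SD, n = 5). In the hedgehog pathway the ligands Shh, Ihh and Dhh were not counted, while the co-receptors Gas1, Cdon and Boc and the transducer Smo were at 67.6 ± 16.2, 25.8 ± 8.34, 20.2 ± 2.81 and 21.6 ± 1.36 FPKM. Gli3, which acts mainly as a repressor of the pathway in dorsal tissue, averaged 15.6 ± 3.51 FPKM (SD, n = 5) and exceeded Gli2 in every library. Ptch1, a receptor that is also a target of the pathway, stood at 2.11, 3.803, 3.57, 12.4 and 2.32 FPKM, with control 4 above the range of the rest, and Gli1, another target with an exon of another gene on the opposite strand, reached 2.75 FPKM there against 0.364 to 0.917 FPKM. Gas1 and Cdon were lowest in the same library, at 45.4 and 14.3 FPKM.

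Of the Notch pathway, 20 of 22 genes were counted. The ligand Dll1 stood at 31.3, 31.4, 28.3, 40.4 and 40.3 FPKM in control 1 to control 5, and the fringe Mfng, which modifies Notch receptors, averaged 33.8 ± 5.78 FPKM (SD, n = 5). The receptor Notch1 stood at 25.6, 38.5, 26.5, 54.7 and 19.8 FPKM, its lowest and highest values being those of control 5 and control 4. Notch1 exceeded Notch2 in every library, whereas Notch2 and Notch3 changed order, Notch3 being lowest in control 5 at 5.18 FPKM against 10.8 to 19.3 FPKM. Rbpj, the DNA-binding partner of Notch, averaged 11.97 ± 2.28 FPKM (SD, n = 5). Dlk1, a non-canonical ligand, was the widest of the pathway, at 0.777, 2.87, 1.82, 9.46 and 1.598 FPKM.

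Guidance genes were led by receptors. Plxnb2, a semaphorin receptor, stood at 48.6, 61.6, 47.2, 67.2 and 42.6 FPKM in control 1 to control 5, and the Eph receptor Epha4 at 52.4, 45.4, 36.8, 47.2 and 77.2 FPKM. The ephrin Efnb2 exceeded Efnb1 in every library. The netrin receptor Dcc averaged 29.6 ± 6.995 FPKM (SD, n = 5) and the Slit receptor Robo2 19.3 ± 5.78 FPKM (SD, n = 5). Ntn1, the ligand of Dcc, stood at 0.488, 0.658, 0.865, 12.7 and 0.418 FPKM, so that control 4 alone was well above 1 FPKM. The ephrin Efna5 and the plexin Plxnc1 were highest in control 4 as well, at 13.7 and 18.6 FPKM against 3.97 to 5.54 and 4.85 to 6.61 FPKM.

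Growth factors were dominated by Mdk, a heparin-binding factor of embryonic brain, at 246, 262, 239, 241 and 381 FPKM in control 1 to control 5; its relative Ptn averaged 40.5 ± 7.13 FPKM (SD, n = 5) and was lower in every library. Igf2, an imprinted growth factor, stood at 70.8, 105, 62.3, 37.9 and 33.4 FPKM, highest in control 2 and lowest in control 5. Of the reelin pathway, the receptors Lrp8 and Vldlr averaged 6.75 ± 1.11 and 3.06 ± 0.503 FPKM and the adaptor Dab1 9.62 ± 2.02 FPKM. The neurotrophins Bdnf and Ntf3 were not counted.

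Of 239 adhesion and matrix genes 146 (61.1%) were counted, against 53.7% of all protein-coding genes. Of these, 55 reached 10 FPKM, and the median was 4.82 FPKM, against 8.63 FPKM for all counted genes. Ctnnb1, the beta-catenin of adherens junctions and WNT signalling, averaged 184 ± 25.5 FPKM (SD, n = 5), with an overlapping exon of another gene on the opposite strand. Cdh2, the neural cadherin, stood at 65.2, 69.6, 59.5, 105 and 109.5 FPKM in control 1 to control 5, and Cdh1, the epithelial cadherin, at 0.0448 to 0.15 FPKM, so that Cdh2 was at least 619 times Cdh1 in each library. The alpha-catenins Ctnna2 and Ctnna1 changed order between libraries. Celsr2 and Dchs1, large cadherins of planar polarity, had the same lowest and highest libraries, control 5 and control 4: Celsr2 stood at 20.3, 22.8, 22.1, 32.9 and 11.9 FPKM and Dchs1 at 18.9, 24.2, 17.03, 29.4 and 11.4 FPKM. The integrin Itgb1 averaged 27.7 ± 5.28 FPKM (SD, n = 5), and Itga6, a laminin receptor subunit, 15.3 ± 3.97 FPKM (SD, n = 5). The nectin Pvrl3 was the highest immunoglobulin adhesion gene, at 53.1 ± 8.8 FPKM (SD, n = 5). Alcam was low in control 4, at 10.2 FPKM against 20.9 to 33.5 FPKM, while Ncam1, the neural cell adhesion molecule, was highest there, at 18.3, 24.6, 22.03, 39.6 and 16.1 FPKM.

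The matrix genes followed control 2. It held the highest value in 27 of 50 counted genes as deposited and in 30 rescaled, against 7.81% and 15.1% of all counted genes. Control 5 held the lowest value in 22 as deposited and in 30 rescaled, against 14.1% and 29.5% of all counted genes. Fn1, fibronectin, stood at 29.1, 46.4, 23.7, 36.8 and 24.1 FPKM in control 1 to control 5, and Col1a1, a fibrillar collagen of connective tissue, at 8.604, 10.8, 5.88, 3.44 and 1.57 FPKM. Sparc, a matrix-binding protein, averaged 79.3 ± 10.9 FPKM (SD, n = 5). Vcan, a proteoglycan of migrating cells, broke the pattern with 55.8, 45.5, 43.1, 115 and 53.9 FPKM, highest in control 4. The mesenchymal, endothelial and microglial markers were highest in control 2 too, as given above, and their part in the matrix values was not tested. The counted matrix genes had a median transcript GC content of 54.5%, against 49.5% for all counted genes. After rescaling, genes of the highest GC quintile lay 0.07 above their mean in control 2 and 0.20 below in control 5. The part of this GC pattern in the matrix values was not tested. Of the tight and gap junction genes, Tjp1 stood at 28.2 to 39.8 FPKM and the connexin Gja1 at 14.3 to 24.5 FPKM.

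Metabolic genes were present nearly in full: 153 of 167 (91.6%) were counted, against 53.7% of all protein-coding genes. Of these, 108 reached 10 FPKM, and the median was 16.9 FPKM, against 8.63 FPKM for all counted genes. A 2-fold range was seen in 22 (14.4%) and in none among control 1 to control 3, against 11.8% and 0.897% of all counted genes. In glycolysis, Pkm stood at 210.3, 173, 165, 201 and 245 FPKM in control 1 to control 5 and Ldha, which makes lactate, at 141, 119, 138, 113 and 159 FPKM. Pgk1 averaged 134 ± 33.2 FPKM (SD, n = 5) and Gpi1 100.1 ± 15.1 FPKM (SD, n = 5). The values of Tpi1, Aldoa and Gapdh, also among the highest, are uncertain because of exons on the opposite strand or near-identical copies. Hk2 exceeded Hk1 in every library and Ldha exceeded Ldhb, in both cases by less than 2-fold in each. The glucose transporter Slc2a1 was higher than Slc2a3 in all 5.

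In the tricarboxylic acid cycle Idh2, a mitochondrial isocitrate dehydrogenase, stood at 149.5, 139.6, 133, 139.8 and 136 FPKM in control 1 to control 5, and Sdhd, a succinate dehydrogenase subunit, at 93.9, 92.7, 87.3, 98.7 and 93.3 FPKM. Their SDs of log2(FPKM + 1) were 0.06 and 0.06 as deposited, against a median of 0.24, and 0.17 and 0.12 rescaled, against 0.20. Sdha, another subunit of the same complex, was less even, at 52.6, 57.7, 48.6, 75.99 and 101 FPKM. In fatty acid synthesis Acly averaged 107 ± 17.2 FPKM (SD, n = 5), and the desaturase Scd2 was higher than Scd1 in every library. Fasn, the fatty acid synthase, stood at 43.2, 65.3, 42.2, 70.8 and 34.4 FPKM, lowest in control 5. All 24 genes of cholesterol synthesis were counted: Hmgcs1, an early enzyme of the pathway, stood at 38.4, 41.4, 40.2, 49.9 and 92.6 FPKM, highest in control 5. In serine and folate metabolism, Psat1 stood at 153, 147, 149, 132 and 174 FPKM and Phgdh, the first enzyme of serine synthesis, at 51.1 to 60.1 FPKM, and the cytosolic and mitochondrial Shmt1 and Shmt2 could not be ordered. Glul, which makes glutamine, averaged 18.4 ± 1.49 FPKM (SD, n = 5).

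**Figure D4:**
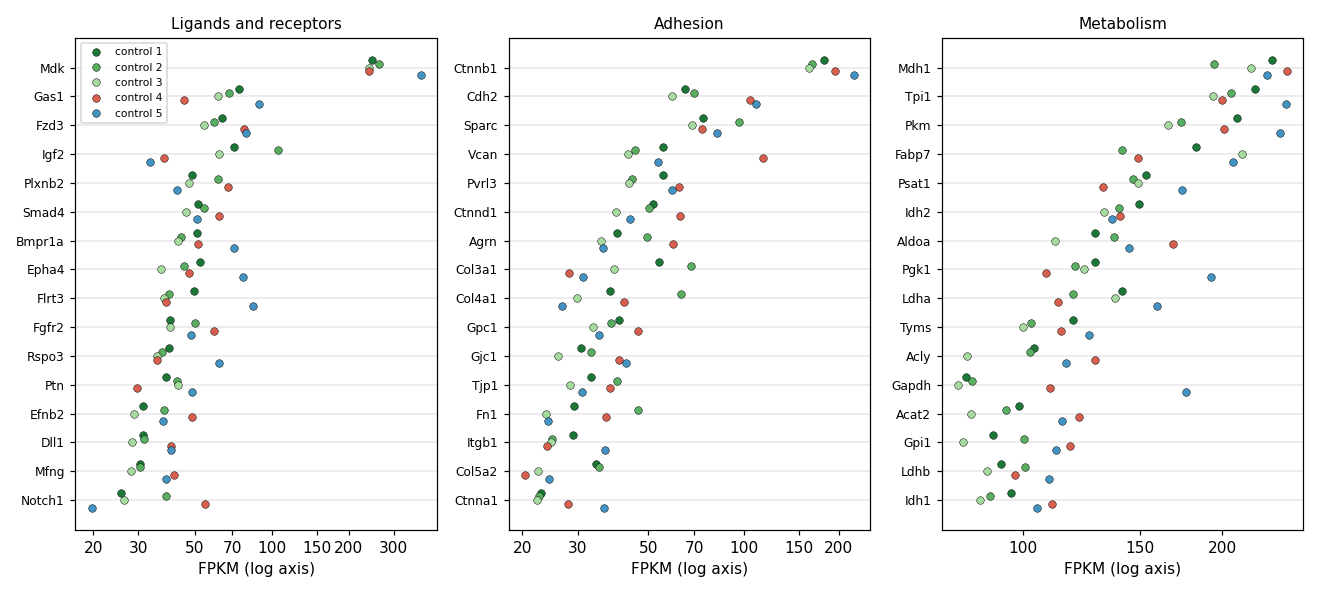
FPKM (log axes) of the 16 genes with the highest means among ligands and receptors, adhesion genes and metabolic genes, 1 point per control library. Mdk, Ctnnb1 and Mdh1 lie at the tops of the panels with means of 274, 184 and 227 FPKM, and the points of Igf2, Vcan and Col3a1 lie far apart.

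The most abundant protein-coding genes were globin, histone, mitochondrial, ribosomal and cytoskeletal genes. The non-coding RNAs Metazoa_SRP and Rn7sk are not among the members. Together they held 55.4% of the FPKM sum in control 1 and 39.2%, the lowest share, in control 5. Of the 20 highest, 11 encoded replication-dependent histones, whose transcripts mostly lack a poly(A) tail and are kept in total RNA libraries. Hist1h4c averaged 5006 ± 660.4 FPKM (SD, n = 5), but the Hist1h4 genes have near-identical coding sequences, so their separate values are uncertain. The elongation factor Eef1a1 stood at 4510.4, 4582, 4253, 3941 and 4604 FPKM in control 1 to control 5, Actb at 1566, 1778, 1502, 1829 and 1803 FPKM and Tuba1a, the tubulin of young neurons, at 2345, 2034, 2208, 2801 and 1668 FPKM, with Tuba1b a near copy. Of 13 mitochondrially encoded transcripts 9 were highest in control 5 and 4 in control 2, against 44.4% and 7.81% of all counted genes. After rescaling 8 were highest in control 5 and 4 in control 2, against 31.1% and 15.1%. The transcript mt-Cytb stood at 239, 388, 271, 291 and 1148 FPKM and mt-Co1 at 1538, 1438, 1406, 1585 and 3228 FPKM. The transcript mt-Nd6 stood at 130, 474, 153, 187 and 263 FPKM, highest in control 2. The 13 mitochondrial genes had a median GC content of 37.1%, below the 49.5% of all counted genes. Of 86 ribosomal protein genes 83 were counted, 53 of them at 100 FPKM or more, and translation factors had the smallest SD of a list level after rescaling, 0.02 on the log2 scale.

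Related genes were set against each other within each library, where scaling does not change their order. It enters their log2 ratios only through the 1 FPKM added to each value. With 0.1 FPKM added instead, 6 of 56 ratios moved by more than 1 SD. Of 56 pairs, 52 kept 1 order in all 5 libraries, and Eomes with Tbr1, Notch2 with Notch3, Ctnna2 with Ctnna1 and Shmt2 with Shmt1 changed theirs. The most even ratios included Ezh2 over Ezh1, the catalytic subunits of the Polycomb complex, with a mean log2 ratio of 4.66 ± 0.11, and H3f3b over H3f3a, both encoding histone H3.3, with -0.97 ± 0.11. The cyclins Ccnd2 and Ccnd1 kept their order with a changing distance: Ccnd2 stood at 228, 339.8, 294, 196 and 149 FPKM in control 1 to control 5 and Ccnd1, which an exon of another gene overlaps, at 41.6, 47.4, 38.1, 135 and 60.96 FPKM. The log2 ratio of Aldoa over Aldoc ranged from 2.14 in control 3 to 5.03 in control 4. For 5 libraries a two-sided exact sign-flip test cannot go below p = 0.0625, so the orders are given as counts.

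**Figure D5:**
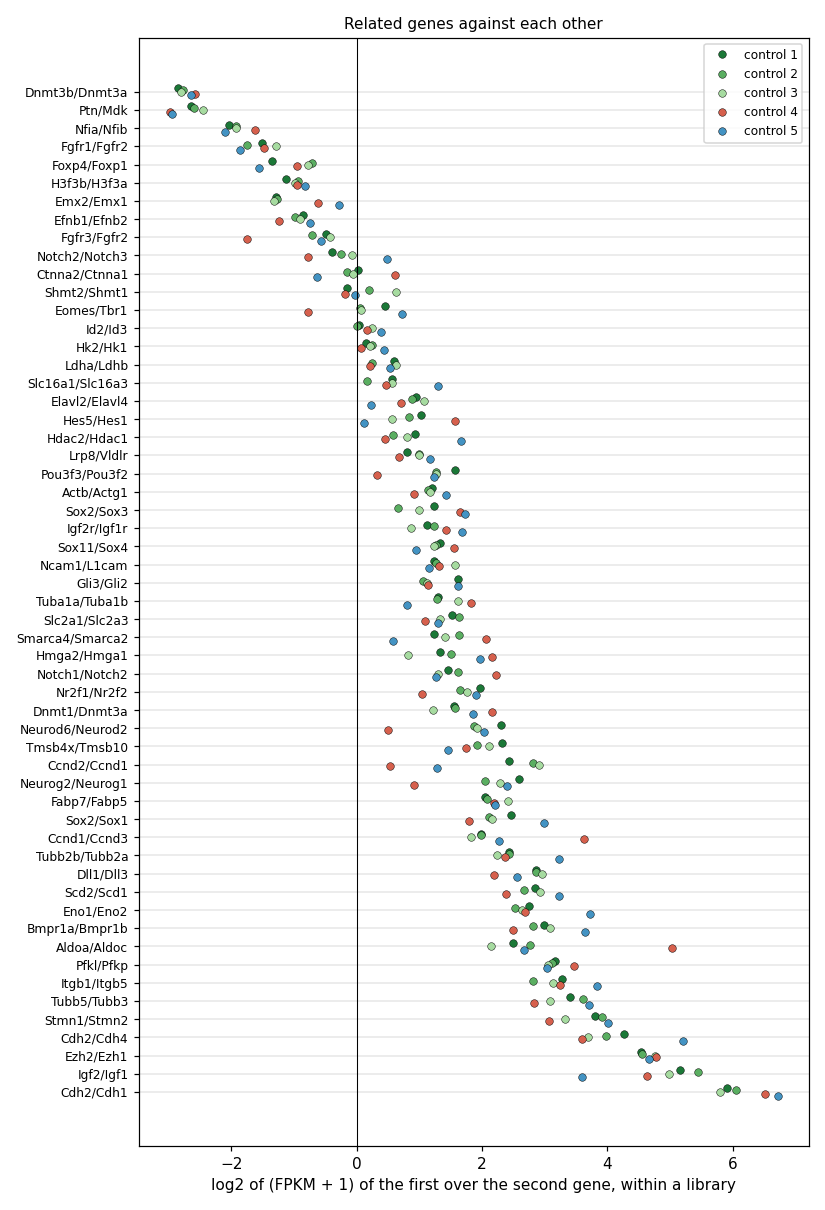
log2 of (FPKM + 1) of the first over the second gene of 56 pairs, sorted by mean, 1 point per control library. The vertical line marks equal values, and 4 pairs have points on both sides of it. Ccnd2/Ccnd1 and Aldoa/Aldoc have the widest rows. Control 4 (red) is apart in Aldoa/Aldoc, and control 4 and control 5 lie below the other libraries in Ccnd2/Ccnd1.

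Among the 5088 genes with a mean of at least 10 FPKM, leaving out predicted genes, the widest named genes were of several kinds. Rpl10-ps3 (19.1 to 567 FPKM), Nutf2-ps1 (5.61 to 39.9 FPKM) and Cbx3 (15.9 to 94.2 FPKM) have near-identical copies elsewhere in the genome, and Hddc3 overlaps an exon on the opposite strand. Neurod6, Pbx3 and Aldoc differed in 1 library each, as given above, while Fgf17 was lowest in control 1 and next lowest in control 5, and Pttg1 was lowest in control 4 and highest in control 5. Hba-x, an embryonic globin, ranged over 42.1 to 228 FPKM. Apbb2, a binding partner of the amyloid precursor, stood at 6.21, 15.8, 15.02, 24.97 and 40.4 FPKM in control 1 to control 5, and no library stood apart from the rest. After rescaling 10 of these 12 remained among the widest. The tightest genes, led by the phosphatase gene Dusp16 at 13.4, 13.6, 13.7, 13.2 and 13.7 FPKM and Pdcd6 at 36.6 to 38.6 FPKM, had SDs of 0.02 and 0.03 as deposited and 0.15 and 0.15 rescaled, and none of the 8 remained among the tightest then, so tightness on this scale depends on the library scaling.

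Control 5 differed by further genes that are not in the lists above and were chosen after their values were seen. The acidic nuclear phosphoprotein Anp32a stood at 74.96, 67.1, 66.8, 73.9 and 232 FPKM in control 1 to control 5, the splicing factor Hnrnph1 at 115, 108, 101, 124 and 281 FPKM and Luc7l3, another splicing factor, at 53.98, 45.5, 40.4, 62.4 and 154 FPKM. In each, control 1 to control 4 lay closer together than control 5 did to any of them. Kmt2d, a histone methyltransferase with a GC-rich transcript, was low there, at 6.57, 11.3, 7.86, 14.5 and 2.45 FPKM. The GC contents were 58.4% for Kmt2d, 47.7% for Anp32a and 41.6% for Luc7l3, against a median of 49.5%.

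At the threshold, Lipg and Edn3 had a mean of 1 and 1 FPKM and were counted, and Galnt12, with 0.996 FPKM, was not. Of the counted genes, 10698 had at least 1 FPKM in each of the 5 libraries and 789 were below it in at least 1. Leaving out control 4 would drop 124 genes from the count and leaving out control 5 would drop 89, against 38 to 46 for each of the other 3. Since other genes would enter, the count itself would be 11406 genes at or above 1 FPKM without control 4, 11448 without control 5 and 11501 to 11504 without any 1 of the others.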

How the data were processed

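Total RNA of dissected dorsal telencephalon was extracted with Trizol, depleted of ribosomal RNA with Ribo-Zero and made into stranded libraries, per the labels' protocols. HISAT2 and the GRCm38 (mm10) build are named in the submitters' processing notes, and no name for the quantification program, its annotation or its strand setting is given there. The authors deposited 1 value per gene symbol and library without a header. The values were read as FPKM because they are not whole, their sums differ between libraries (1996700 to 3051430), and low values rise in steps that scale with transcript length. FPKM was therefore inferred and is not stated by the labels.

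The 5 control libraries were analysed without the mutants. Gene classes and positions came from GENCODE M21 (GRCm38): of 38803 symbols, 35639 matched a current name and 1746 an older name, 84 fitted more than 1 gene and 1334 had no match. Protein-coding genes with a mean of at least 1 FPKM were counted. Spread is the SD of log2(FPKM + 1), which understates differences of low genes and is computed here from the deposited FPKM. With 1 group there is no test, and no p-value across genes was computed. Alternatives were a pseudocount of 0.1, a mean of at least 5 FPKM, at least 1 FPKM in each library, no filter, median-ratio rescaling, 1 protein-coding sum, and leaving out each library; leaving out control 4 and control 5 together was added after seeing the data. The spread and rescaling steps were tested on simulated data, and the outlier step was not. FPKM hold no counts, so no counting intervals are given; 1 fragment in 2000 bases was worth an estimated 0.0241 to 0.0509 FPKM. Promoter windows came from RefSeq. Values were computed with Python 3.11.15, pandas 2.3.3 and numpy 2.4.6, and drawn with matplotlib 3.10.9.

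The members and the 62 gene lists were chosen with earlier results of these data known. Named by rule were the 5 markers, the 20 genes with the highest mean, the highest 6 and widest 2 members of each list, the 12 widest and 8 tightest genes at 10 FPKM or more without predicted genes, 56 pairs, and the 3 genes to either side of the threshold; other genes were named for their role after their values were seen. Some named genes are not reported here.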

Additional observations from a re-analysis of the deposited data

Results flagged for a closer look

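In some lists and genes 1 library lay far from the other 4: the gap between that library and its nearest neighbour, on the log2(FPKM + 1) scale, was more than 0.71 of the range of the 5 libraries. Chance alone gives this about 1 time in 20, and 968 of 11487 counted genes (8.43%) met it. Of 61 list levels, 8 met it. Control 4 was the high library for ventral telencephalon genes (0.78 of the range), POU factors (0.936), zinc finger factors (0.718), Slit, Robo and netrin genes (0.836), cytoskeletal genes (0.839) and Y-linked genes (0.998). Control 5 was the high library, as deposited, for intermediate progenitor genes (0.833 of the range) and HES, HEY and ID repressors (0.826). These levels are over counted genes, and 4 of 7 ventral and 4 of 4 Y-linked genes were counted only because of control 4, so their values were partly fixed by that choice. Over all 16 ventral and 7 Y-linked genes measured the share was 0.834 and 0.998, and for the other 6 lists it was 0.733 to 0.92 with the same library apart. Of 251 genes named in the text, 44 met it. Many of them were named because 1 library differed, so this number is not a rate. All these shares are for deposited values, and some depend on library scaling. Rescaled intermediate progenitor levels were 3.93, 3.96, 4, 3.74 and 3.85 in control 1 to control 5, so control 5 was not the highest. Rescaled cytoskeletal levels were 7.05, 7.03, 7.15, 7.24 and 6.85, with control 4 highest and control 5 lowest. Rescaled zinc finger levels were 3.26, 3.43, 3.38, 3.68 and 3.22, and Slit, Robo and netrin levels 2.44, 2.48, 2.47, 2.74 and 2.21. Rescaled HES, HEY and ID levels were 4.66, 4.65, 4.64, 4.37 and 4.83. In none of the lists with rescaled levels given here did a library then meet the criterion. The ventral, POU and Y-linked lists still met it, with control 4 high.

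Control 4 was the high library, with the share of the range in brackets, for Ctnna2 (0.812), Dcx (0.731), Ddx3y (0.993), Dlx1 (0.73), Efna5 (0.747), Eif2s3y (0.992), Fgf15 (0.733) and Gad2 (0.899). It was high too for Hes6 (0.842), Meis1 (0.893), Ntn1 (0.879), Pbx3 (0.95), Plxnc1 (0.782), Pou3f2 (0.735), Sall3 (0.711) and Shh (0.898). It was high too for Sox1 (0.765), Sox11 (0.731), Tbr1 (0.74), Uty (0.994) and Vcan (0.738). Control 4 was the low library, with the share of the range in brackets, for Aldoc (0.855), Fgfr3 (0.798), Neurod6 (0.831), Neurog2 (0.805), Nfia (0.864), Nfib (0.909), Sstr2 (0.896) and Wnt2b (0.782). It was low too for Zbtb18 (0.738). Control 5 was the high library, with the share of the range in brackets, for Anp32a (0.909), Emx2 (0.728), Fezf2 (0.773), Hist2h3b (0.883), Hmgb2 (0.923), Hnrnph1 (0.797), Hspa8 (0.741) and Itga6 (0.72). It was high too for Mdk (0.8), Neurod1 (0.781), Rspo3 (0.814) and mt-Co1 (0.856). Control 3 was the high library, with the share of the range in brackets, for Ttr (0.792). Control 1 was the low library, with the share of the range in brackets, for Fos (0.808). Shh, the hedgehog ligand, reached 0.41 FPKM in control 4 and 0 to 0.0358 FPKM in the other libraries, and Sox1 8.98 against 3.09 to 4.04 FPKM. The other values are in the text above, and no cause was tested.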

How the results depend on the processing

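Counts of variable genes depended on which libraries and which low genes entered. The number of genes with a 2-fold range was 1358; it was 856 with a mean of at least 5 FPKM, 2401 with a pseudocount of 0.1, and 638 to 1235 when 1 library was left out, the lowest without control 5 (638) and then without control 4 (801). Without control 4 and control 5 together, a setting added after seeing the data, it was 103, over 3 libraries in place of 5. The median SD of log2(FPKM + 1), 0.24, ranged from 0.19 without control 5 to 0.26 without control 1, and was 0.13 without control 4 and control 5. The excess of radial glia over neuronal genes, 0.95 on the log2 scale, was 0.27 with a mean of at least 5 FPKM, where fewer low neuronal genes were left in the list, and stayed within 1 SD under the other settings. List levels moved by more than 1 SD in 47 of 60 lists with a mean of at least 5 FPKM, 39 of 61 with no filter, 34 of 61 with a pseudocount of 0.1 and 26 of 59 with at least 1 FPKM in each library, in 0 to 3 when 1 library was left out and in 7 of 60 without control 4 and control 5. Both rescalings are centred on the mean over libraries and so leave the mean level of a list nearly in place by construction. Of the pairs, 52 to 54 of 56 kept 1 order under every setting run. The number of counted genes stayed within 1.5 times its value of 11487 under every setting run. No paired analysis was possible because a single group was described. Near the threshold depth is limiting: 1 FPKM in a transcript of 2000 bases is an estimated 19.6 to 41.5 fragments. Depth, protein-coding share and GC pattern differ between the same libraries and cannot be told apart.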

Other observations

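Chromatin genes were all counted, 35 of 35, and 33 reached 10 FPKM. The histone variant gene H2afv was even, at 227, 252, 236, 235 and 237 FPKM in control 1 to control 5, and Hmgn2, a nucleosome-binding protein, averaged 520.3 ± 81.4 FPKM (SD, n = 5). Hmgb2, a chromatin protein of dividing cells, stood at 16.7, 15.5, 17.1, 15.7 and 52.03 FPKM, so that control 5 alone was high. Of the DNA methyltransferases, Dnmt1 exceeded Dnmt3a in every library and Dnmt3b lay below Dnmt3a in every library, the mean log2 ratios being 1.68 ± 0.36 and -2.72 ± 0.11.

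Immediate early genes, which respond quickly to handling, were mostly low, and constitutive chaperones were high. Of 16 immediate early and heat-shock genes 8 were counted, among them the constitutive chaperones Hsp90ab1 and Hspa8 at 913 ± 193 and 574 ± 162 FPKM. Jun averaged 19.6 ± 3.99 FPKM (SD, n = 5), while Fos and Egr1 had means of 0.183 and 0.169 FPKM and were not counted. No gene of this list had a 2-fold range.

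The replication-dependent histone Hist2h3b was listed at 0 in control 3 and control 4 and at 39.5 FPKM in control 5, with 0.414 and 0.543 FPKM in control 1 and control 2. It has near-identical copies in the genome, and the labels do not say how fragments were shared between copies.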
